A study of Mus musculus with 59 samples.

Results

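Peroxisomal β-oxidation genes were examined in 7 lists of ChIP-seq peaks from mouse liver, which map where the repressor BCL6 and the nuclear receptors PPARα and PPARδ were called on the mm10 genome. The 8 genes were the acyl-CoA importers Abcd2 and Abcd3, the bifunctional enzymes Ehhadh and Hsd17b4, the thiolases Acaa1a and Acaa1b, the auxiliary reductase Decr2 and the peroxisome division gene Pex11a, out of 21000 protein-coding genes with a curated RefSeq transcript. A peak was assigned to a gene when its center lay inside the gene, or when the nearest transcription start site (TSS) of any protein-coding gene lay within 100 kb and belonged to it. By this rule the 8 genes held 204 of the 102931 peaks in the 7 lists. Livers came from male C57BL/6 mice of the genotype WT, either fed or fasted overnight, with 3 replicates for each factor and feeding state, and from 3 fed Bcl6 fl/fl mice of the same strain, in which Bcl6 is flanked by loxP sites but no Cre is present. The fl/fl mice serve in the study as the controls of a liver knockout and were used here as a further set of animals for BCL6. Of the 59 samples, 21 are behind these lists.

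The deposited lists hold only the position of each peak, as a chromosome with a start and an end. The authors pooled replicates for an initial peak call, then kept peaks enriched over input by counts of the separate replicates. The list of each group gives no value per animal. A site is therefore either called or not called in a state, and no test between fed and fasted livers could be made. Read depth is not given by the lists. Whether libraries of the 2 feeding states were read to unequal depth, and its part in any difference in the number of calls, was not tested. Intervals given for shares of sites are Wilson intervals at 95% and account for counting error alone.

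Peroxisomal β-oxidation shortens very long chain, branched and dicarboxylic fatty acids that mitochondria handle poorly. ABC transporters of the D family bring the acyl-CoA into the organelle, oxidation makes the initial double bond and releases hydrogen peroxide, a bifunctional enzyme hydrates and dehydrogenates the product, and a thiolase cleaves off acetyl-CoA. In rodent liver the pathway is a classical target of PPARα, which binds DNA with RXR at a DR1 element, a direct repeat of AGGTCA with 1 base between the repeats. PPARδ recognizes the same element, and BCL6 is a zinc finger repressor that binds elements close to TTCCTAGAA.

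Sequences are shown for the site of each gene that was called in the most lists, since at all the printed genes except Pex11a several factors meet there. The Pex11a site was called in the fasted PPARα list alone, and ties were settled by the shorter distance to the TSS, as at Abcd3, where another site was called in as many lists. Each is the 200 bp window around the center of a site on the plus strand of GRCm38, the assembly of mm10. Capitals mark a DR1 match with at most 2 mismatches to AGGTCANAGGTCA or a BCL6 element with at most 1 mismatch to TTCCTAGAA, on either strand, and a window without capitals holds neither. The windows of Ehhadh, Acaa1b and Decr2 are the ones called for all 3 factors in both feeding states and for BCL6 in fl/fl livers as well.
Ehhadh intron 1, chr16:21782918-21783117: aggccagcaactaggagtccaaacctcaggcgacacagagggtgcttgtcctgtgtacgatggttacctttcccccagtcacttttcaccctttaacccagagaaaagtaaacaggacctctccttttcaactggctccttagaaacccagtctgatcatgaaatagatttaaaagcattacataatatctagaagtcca
Acaa1b upstream, chr9:119164878-119165077: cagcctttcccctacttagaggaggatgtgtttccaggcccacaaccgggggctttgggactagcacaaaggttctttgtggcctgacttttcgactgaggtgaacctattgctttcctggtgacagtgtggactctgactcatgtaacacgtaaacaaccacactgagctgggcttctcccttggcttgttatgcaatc
Decr2 intron 4, chr17:26087110-26087309: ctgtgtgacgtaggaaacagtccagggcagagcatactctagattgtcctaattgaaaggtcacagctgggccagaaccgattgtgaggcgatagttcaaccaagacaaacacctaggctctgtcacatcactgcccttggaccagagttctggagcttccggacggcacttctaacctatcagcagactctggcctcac
Abcd3 intron 1, chr3:121814399-121814598: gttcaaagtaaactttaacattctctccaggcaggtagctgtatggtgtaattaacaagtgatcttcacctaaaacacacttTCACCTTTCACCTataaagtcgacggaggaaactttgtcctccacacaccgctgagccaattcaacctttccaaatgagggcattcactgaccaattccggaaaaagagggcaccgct
Abcd2 upstream, chr15:91282989-91283188: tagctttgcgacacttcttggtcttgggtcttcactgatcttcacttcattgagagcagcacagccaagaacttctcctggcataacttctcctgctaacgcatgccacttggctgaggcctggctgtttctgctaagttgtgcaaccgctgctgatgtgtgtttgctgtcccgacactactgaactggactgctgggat
Acaa1a intron 3, chr9:119342815-119343014: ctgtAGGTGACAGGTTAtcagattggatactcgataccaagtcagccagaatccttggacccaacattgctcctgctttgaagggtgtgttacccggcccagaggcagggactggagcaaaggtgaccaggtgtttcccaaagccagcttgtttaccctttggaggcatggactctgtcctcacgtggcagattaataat
Pex11a intron 1, chr7:79740346-79740545: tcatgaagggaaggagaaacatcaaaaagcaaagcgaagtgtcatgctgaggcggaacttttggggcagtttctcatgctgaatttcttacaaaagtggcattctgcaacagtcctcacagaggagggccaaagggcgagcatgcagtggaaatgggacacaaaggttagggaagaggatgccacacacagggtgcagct
The Acaa1a window is the intronic site of that gene, because its other site, called in as many lists, overlaps predicted transcribed exons. A further pair of windows is shown because they were the only ones of the 60 sites described below with an exact element. The window upstream of Ehhadh holds TTCCTAGAA on the minus strand, and the window downstream of Acaa1b holds a DR1 without a mismatch on the minus strand.
Ehhadh upstream, chr16:21788202-21788401: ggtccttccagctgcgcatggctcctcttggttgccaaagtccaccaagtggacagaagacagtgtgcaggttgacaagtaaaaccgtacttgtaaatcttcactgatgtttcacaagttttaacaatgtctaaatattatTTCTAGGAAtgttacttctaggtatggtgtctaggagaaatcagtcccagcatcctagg
Acaa1b downstream, chr9:119145174-119145373: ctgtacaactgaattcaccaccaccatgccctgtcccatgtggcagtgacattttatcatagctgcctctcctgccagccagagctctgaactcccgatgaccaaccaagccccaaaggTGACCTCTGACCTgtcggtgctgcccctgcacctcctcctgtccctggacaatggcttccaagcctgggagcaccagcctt
Among the 3 windows called in every list, none carried a DR1 match within 2 mismatches or a BCL6 element within 1 mismatch. The windows of Ehhadh, Acaa1b and Decr2 had a best DR1 match with 4, 4 and 3 mismatches. The Ehhadh window overlaps the region that the study amplified by ChIP-qPCR, whose primers match the genome at 1 place, chr16:21782878-21782982, 4904 bp downstream of the TSS in intron 1.

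Pooled over the 8 genes, all 7 lists placed peaks at several times the density of the genome. The sequence assigned to the 8 genes added up to 0.581 Mb, against 1760 Mb for all protein-coding genes. In fed livers BCL6 had 55 peaks per Mb at the 8 genes and 7.71 per Mb over all genes, a ratio of 7.14. PPARα had 68.8 against 10.9 peaks per Mb, a ratio of 6.32, and PPARδ 32.7 against 3.76, a ratio of 8.7. In fasted livers the ratio was 6.74 for BCL6, 5.12 for PPARα and 14.1 for PPARδ, for which the 8 genes had 17.2 peaks per Mb and all genes 1.22. These densities describe genes that were chosen with peaks at some of them already known, so they were not tested. They hold for curated starts and were not recomputed with predicted ones.

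**Figure D1:**
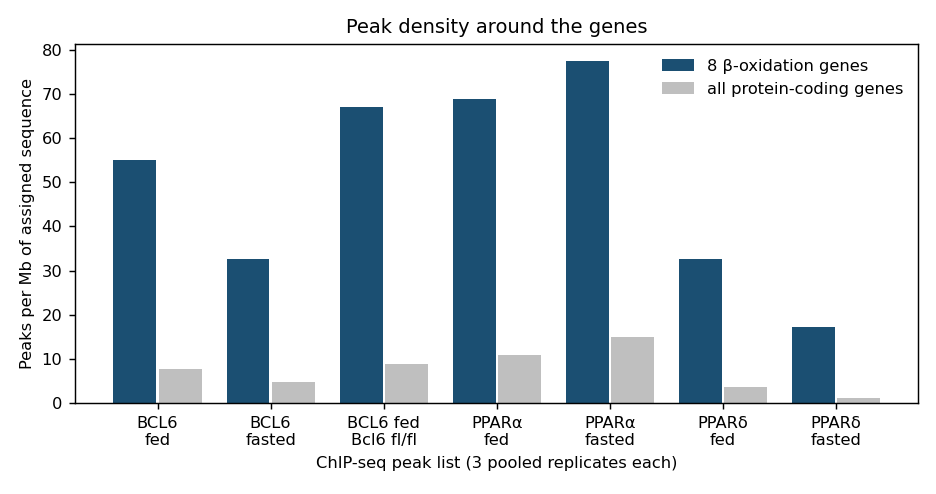
Peaks per Mb of assigned sequence (vertical axis) in each of the 7 peak lists (horizontal axis), for the 8 peroxisomal β-oxidation genes (dark bars) and for all protein-coding genes (grey bars). The dark bar is taller in every list, from 17.2 against 1.22 peaks per Mb for PPARδ in fasted livers to 77.4 against 15.1 for PPARα in fasted livers.

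PPARα was called at all 8 genes in fasted livers and at 7 in fed livers, the exception being Pex11a. Over all protein-coding genes, 47.6% had at least 1 fasted PPARα peak and 35.5% at least 1 fed PPARα peak. PPARδ was called at 7 of the 8 genes in each state, whereas 19.3% of all genes had a PPARδ peak in fed and 9.01% in fasted livers. BCL6 was called at 6 genes in fed livers and at 5 in fasted livers, beside 29% and 21.5% of all genes. In fed fl/fl livers BCL6 was called at 7 genes, beside 31.9% of all genes. When predicted RefSeq transcripts were counted as starts too, 14 of the sites at Abcd2 and Ehhadh went to other genes, and fasted BCL6 peaks came to 11 instead of 19. Pex11a was the only one of the 8 without a BCL6 or PPARδ peak in any list.

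The peaks were unevenly spread over the pathway. Combined over the 3 factors in C57BL/6 livers, with peaks joined into 1 site where their centers lie within 200 bp of each other, the 8 genes had 60 sites out of 38462. Abcd2, Abcd3 and Ehhadh had 15 sites each, which is 75% of the total, and only 173 of the 21000 genes had more. Both values hold for curated starts, since 7 Abcd2 and 7 Ehhadh sites went to other genes when predicted starts were counted. Acaa1b had 6 sites, Decr2 had 3, and Hsd17b4, Acaa1a and Pex11a had 2 each. The short genes were nevertheless the densest, with only 2 or 3 sites each over little assigned sequence. Pex11a, with 7.18 kb of assigned sequence, had 278 sites per Mb and Decr2, with 13 kb, had 231, while Abcd2, with 171 kb, had 87.7 and Hsd17b4, with 113 kb, had 17.8. Over all genes there were 19.7 joint sites per Mb.

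**Figure D2:**
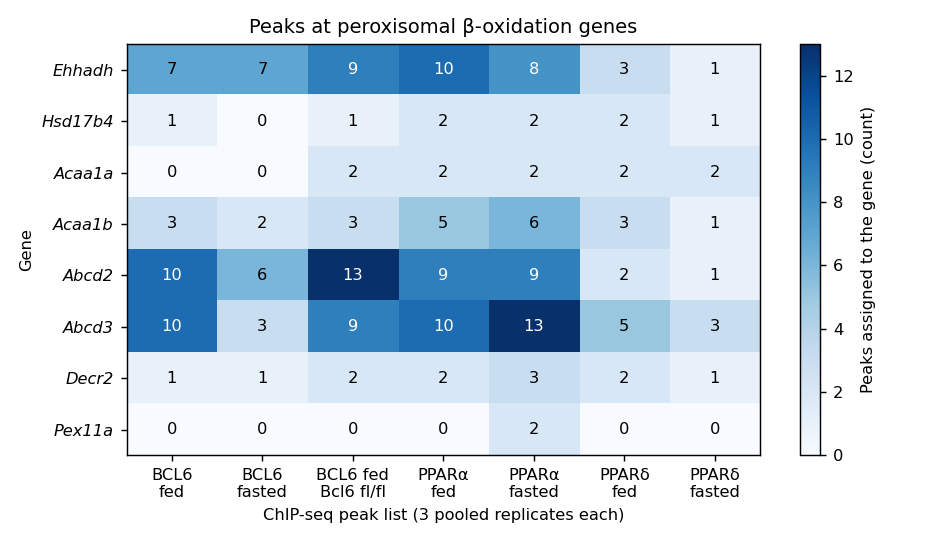
Number of peaks assigned to each gene (rows) in each of the 7 peak lists (columns), as printed in each cell and shaded from 0 to 13. Abcd2, Abcd3 and Ehhadh carry most of the peaks, Acaa1a has BCL6 peaks only in the Bcl6 fl/fl list, and Pex11a has peaks only in the fasted PPARα list.

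Fasted livers had fewer BCL6 calls and more PPARα calls at the 8 genes. BCL6 went from 32 peaks in fed to 19 in fasted livers, PPARα from 40 to 45 and PPARδ from 19 to 10. The whole lists moved in the same directions, from 15642 to 9613 peaks for BCL6, from 21410 to 29085 for PPARα and from 7328 to 2399 for PPARδ. Whether the change at these genes differs from that of the genome was therefore read from the state of each site.

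Of 34 BCL6 sites at the 8 genes, 15 were called in the fed state only, which is 44.1% (interval 28.9% to 60.5%) and close to the 45.4% of all 17599 BCL6 sites. Both states held 17 sites, and 2 were called in the fasted state only, 5.88% against 11.1% of all BCL6 sites. The fasted-only sites both lay at Ehhadh. With the fl/fl list as the fed list there were 24 fed-only sites, 55.8% against 50.3% of all sites joined in this way, and 4 fasted-only sites, 9.3% against 9.75%. PPARα had 52 sites at the 8 genes, of which 33 were called in both states, 63.5% (interval 49.9% to 75.2%) against 51.2% of all 33399. Fed-only calls made up 13.5% of the PPARα sites and 12.9% genome-wide, and fasted-only calls 23.1% (interval 13.7% to 36.1%) and 35.9%. PPARδ differed most from its genome-wide list. It had 19 sites at the 8 genes, and 10 of them were called in both states, 52.6% (interval 31.7% to 72.7%) against 18.7% of all 8197. The other 9 were called in the fed state only, 47.4% against 70.7%. No PPARδ site at these genes was called in the fasted state only (interval 0% to 16.8%), beside 10.6% genome-wide. All 19 sites also had PPARα. Genome-wide, 333 of the 6965 PPARδ sites with PPARα were fasted-only for PPARδ, against 533 of the 1229 without PPARα.

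**Figure D3:**
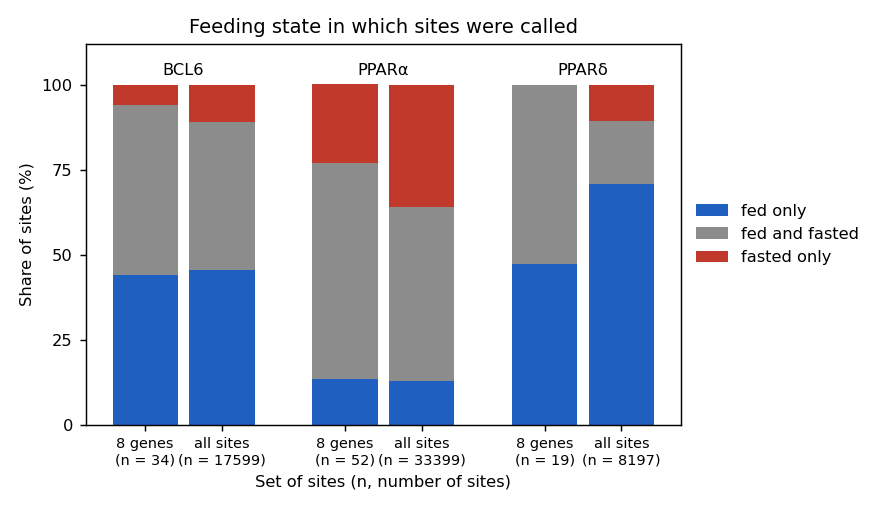
Share of the sites of each factor (vertical axis, %) by the state in which they were called (fed only in blue, both in grey, fasted only in red), for the 8 genes and for all sites of that factor (horizontal axis, with the number of sites). The grey part of the PPARδ bar spans 52.6% at the 8 genes and 18.7% over all sites, while the BCL6 bars are close to each other.

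Most BCL6 sites at the importer Abcd3 were called in the fed state only, 7 of 10, while at the importer Abcd2 4 of 10 were, a share near the 45.4% of all BCL6 sites. Abcd3, which encodes the abundant peroxisomal membrane transporter PMP70 and lies at chr3:121758904-121815302 on the minus strand, had 10 BCL6 peaks in fed livers and 3 in fasted livers. PPARα calls at the same gene went from 10 in the fed to 13 in the fasted state, and those of PPARδ from 5 to 3. In fl/fl livers BCL6 had 9 peaks there. The fed-only BCL6 sites of Abcd3 lay 52170, 38794 and 25242 bp upstream of the TSS and 804, 7785, 19516 and 22848 bp downstream. Among these 7 sites, those 52170 bp upstream and 804 and 7785 bp downstream had a fl/fl BCL6 peak, and the others had none. PPARα was called in fasted livers at 5 of the 7 sites. The site 804 bp downstream, in intron 1, had BCL6 in fed livers only and PPARα and PPARδ in both states, and its window above holds a DR1 match with 2 mismatches. The site 25242 bp upstream, which had no fl/fl peak, was the only one at the 8 genes where BCL6 was fed-only and PPARα was fasted-only. The TSS itself was called for PPARα in fasted livers only, with the site center at a distance of 0 bp.

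Abcd2, the related importer of very long chain and polyunsaturated acyl-CoA at chr15:91145871-91192007 on the minus strand, had 10 BCL6 peaks in fed and 6 in fasted livers, with no fasted-only site. PPARα had 9 peaks in each state, yet only 7 of its 11 sites there were called in both. Of the others, 2 were fed-only and 2 fasted-only. PPARδ had 2 peaks in fed livers and 1 in fasted livers, and fl/fl livers had 13 BCL6 peaks. Sites spread from 91081 bp upstream, inside the neighboring gene Slc2a13, to 67170 bp downstream. The site at 105 bp downstream of the TSS, in the 5′UTR, was called for PPARα in both states and for BCL6 only in fl/fl livers. The site 11910 bp downstream in intron 3 had PPARα and PPARδ in both states, with BCL6 again only in fl/fl livers. At 7 of the 15 Abcd2 sites, including the 3 inside Slc2a13, the start of a predicted gene, CN725425, lies closer than that of Abcd2. Counting predicted starts left Abcd2 with 5 fed and 1 fasted BCL6 peaks and 4 PPARα peaks in each state.

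The bifunctional enzymes differed in how many sites they had. Ehhadh, the L-bifunctional enzyme at chr16:21761285-21787834 on the minus strand, had 7 BCL6 peaks in fed and 7 in fasted livers. Its 9 BCL6 sites comprised 5 of both states, 2 fed-only and 2 fasted-only sites. At Ehhadh PPARα had 10 fed and 8 fasted peaks, and PPARδ had 3 and 1. The order of the PPARα counts turned when predicted starts were counted too, with 4 fed and 5 fasted peaks left at Ehhadh beside 3 fed and 4 fasted BCL6 peaks. The 12 PPARα sites comprised 6 of both states, 4 fed-only and 2 fasted-only sites. Intron 1 carried 4 sites between 2623 and 6338 bp downstream of the TSS. Those at 4816 and 5751 bp had BCL6 and PPARα in both states, with PPARδ in both states at the nearer and in fed livers only at the farther site. The site 68 bp upstream of the TSS had PPARα in both states and no BCL6. The adjacent site 467 bp upstream had BCL6 in fasted livers and no PPAR call, and its window above holds the exact BCL6 element. In fed fl/fl livers BCL6 was called at this position as well, 532 bp upstream, so its absence from the fed state was seen in the C57BL/6 list and not in the fl/fl list. A cluster of 7 sites lay between 19310 and 46306 bp upstream, 4 of them inside the neighboring gene Map3k13, and for these 7 sites a predicted start of Map3k13 lies closer than the TSS of Ehhadh.

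Hsd17b4, the D-bifunctional enzyme on chromosome 18, had only 2 sites, both intronic. The site 648 bp downstream of the TSS in intron 1 had BCL6 in fed livers only and PPARα and PPARδ in both states. The site 5813 bp downstream in intron 2 had PPARα in both states and PPARδ in fed livers, and BCL6 only in fl/fl livers. In counts of peaks, Hsd17b4 had 1 BCL6 peak in fed livers and 0 in fasted livers, with 2 PPARα peaks in each state, 2 fed and 1 fasted PPARδ peak, and 1 BCL6 peak in fl/fl livers.

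**Figure D4:**
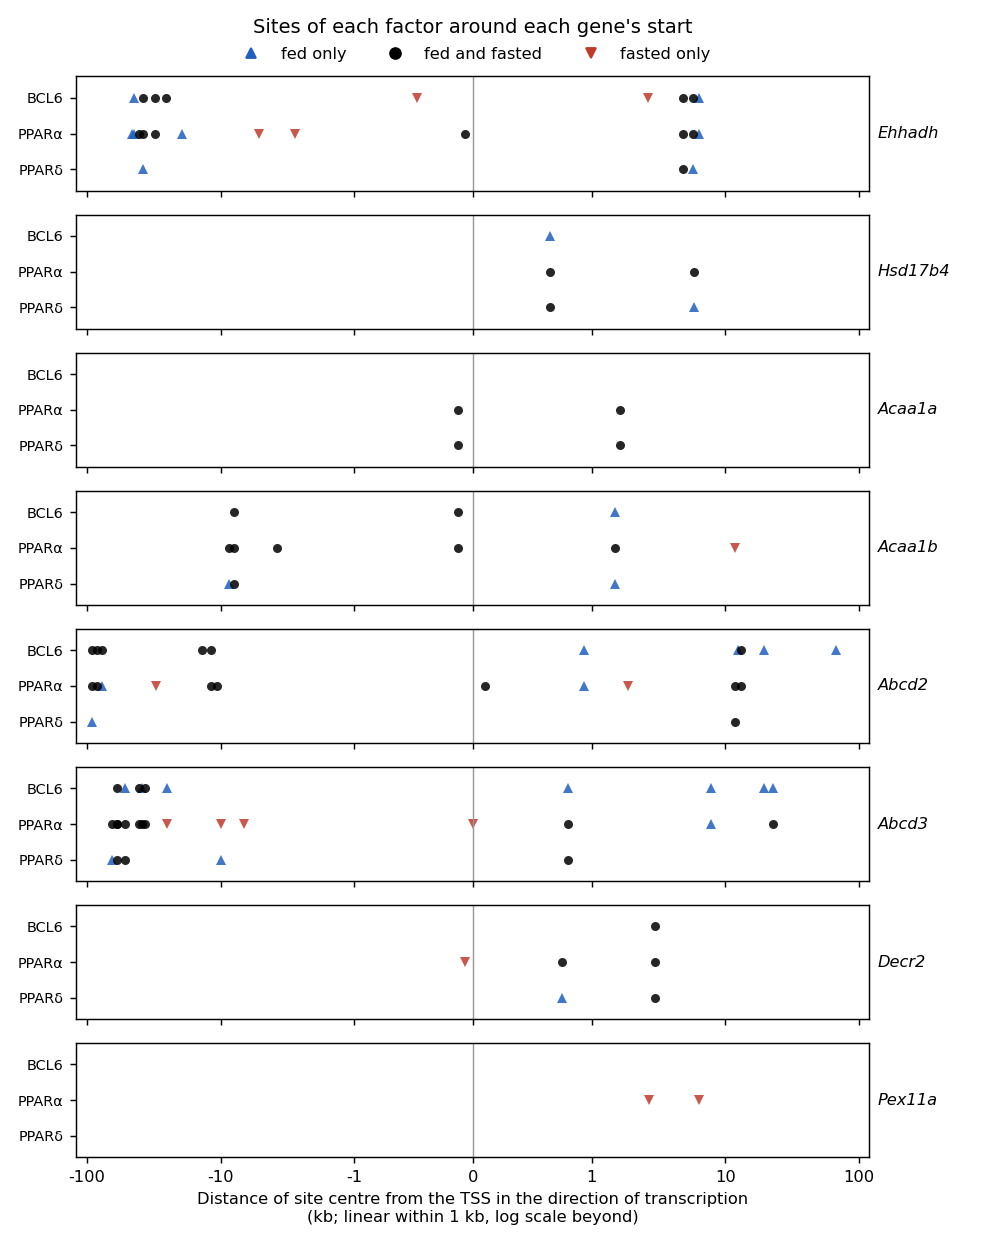
Position of every site around the TSS of each gene, in kb along the direction of transcription (horizontal axis, linear within 1 kb and logarithmic beyond), with 1 row per factor and symbols for fed-only sites (upward triangles), fasted-only sites (downward triangles) and those of both states (circles). Sites close to each other overlap in the drawing. Acaa1a and Acaa1b both have a site just upstream of the TSS and another 1620 and 1488 bp downstream, Pex11a has only fasted PPARα sites, and BCL6 at Abcd3 is mostly fed-only.

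The thiolases form a pair of copies with different calls for BCL6 in C57BL/6 livers. Acaa1a (chr9:119341028-119350296, plus strand) and Acaa1b (chr9:119148043-119157093, minus strand) encode peroxisomal 3-ketoacyl-CoA thiolases and lie 184 kb apart in opposite orientation. Acaa1a had 2 peaks in each of the 4 PPAR lists, at 127 bp upstream and 1620 bp downstream of the TSS, and no BCL6 peak in C57BL/6 livers in either state. It was the only one of the 8 genes at which every PPARδ site was called in both states. In fl/fl livers BCL6 was called at both of these sites. Acaa1b had 3 BCL6 peaks in fed and 2 in fasted livers, 5 and 6 PPARα peaks, 3 and 1 PPARδ peaks, and 3 BCL6 peaks in fl/fl livers. It had sites at matching places, 124 bp upstream and 1488 bp downstream in intron 3, where Acaa1a also has its intronic site. BCL6 was called at the former in both states, without PPARδ, and at the latter in fed livers only, with PPARδ in fed livers only. In fl/fl livers BCL6 was called at the site 1488 bp downstream and not at the one 124 bp upstream. A further 3 sites lay 3790, 7885 and 8642 bp upstream, and the one at 7885 bp was called in all lists. The site 11820 bp downstream, which lies inside the gene Dlec1 and holds the exact DR1, had PPARα in fasted livers and no other call.

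The authors kept only reads with a single place in the genome, so the likeness of the copies was measured. The genes aligned to each other over 7 blocks that cover 47.3% of Acaa1a and 48% of Acaa1b, with 88.7% identity over 4445 aligned positions and up to 97.1% in the block at the 3′ end. None of the Acaa1a sites overlapped a block. Of the 6 Acaa1b sites, 1 overlapped a block by 3 bp, and the others lay outside. All words of 75 bp in the sites of both genes occurred at 1 place in the genome, as they did in 59 of the 60 sites, the exception being the Ehhadh site 40695 bp upstream with 69.9%. Over the whole genes 91.5% of the words of Acaa1a and 90.9% of those of Acaa1b occurred at 1 place.

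Decr2, the 2,4-dienoyl-CoA reductase that removes double bonds from unsaturated chains (chr17:26081208-26090322, minus strand), had 1 BCL6 peak in each state, 2 PPARα peaks in fed and 3 in fasted livers, and 2 and 1 PPARδ peaks. All lists met at its site 2955 bp downstream of the TSS in intron 4. The site 750 bp downstream in intron 1 had PPARα in both states and PPARδ in fed livers, and BCL6 only in fl/fl livers. The site 68 bp upstream was called for PPARα in fasted livers only.

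Pex11a, a membrane protein that elongates and divides peroxisomes (chr7:79735957-79743131, minus strand), stood apart from the enzymes and importers. Its 2 PPARα peaks were in fasted livers only, in intron 1 at 2686 bp and in the 3′UTR at 6393 bp downstream of the TSS, and no other list had a peak. The latter site has a DR1 match with 2 mismatches and lies closer to the start of Plin1 than to that of Pex11a.

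PPARδ took part in a larger share of the joint sites here than genome-wide, a difference that was not tested. All 3 factors shared 10 of the 60 sites, 16.7% (interval 9.31% to 28%) against 12.1% of all joint sites, and these lay at 6 genes. PPARα and PPARδ without BCL6 in C57BL/6 livers shared 9 sites, 15% (interval 8.1% to 26.1%) against 6.03%. All of these 9 except the Abcd3 site 9993 bp upstream had a BCL6 peak in fed fl/fl livers, so they were not free of BCL6 in both sets of animals. BCL6 and PPARα without PPARδ shared 16 sites, 26.7% against 23.4%. PPARα alone made up 17 sites, 28.3% (interval 18.5% to 40.8%) against 45.3%, and BCL6 alone 8 sites, 13.3% against 10%. None of the 19 PPARδ sites lacked PPARα, whereas 15% of all 8194 joint sites with PPARδ did. Calls in all 6 C57BL/6 lists were made at 3 of the 60 sites and at 1.76% of all joint sites. At the other end, 30% of the sites at the 8 genes and 42.4% of all joint sites rested on a single list.

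At the 26 sites that BCL6 and PPARα shared, the centers of their peaks lay a median of 18.8 bp apart, compared with 25 bp over all 13633 shared sites. The corresponding median for PPARα and PPARδ was 12.5 bp at 19 sites, compared with 23 bp at 6965. Of the shared sites, 14 were called for both factors in both states, which is 53.8% against 44% genome-wide. The fasted PPARα list held 7 of the 15 fed-only BCL6 sites, 46.7% (interval 24.8% to 69.9%) against 53% of all such sites. The fasted PPARδ list held 3 of the 15, 20% against 3.07%, a contrast that rests on few sites and was not tested. Of the 17 sites with BCL6 in both states it held 3 as well, 17.6% against 9.96%. The 3 fed-only BCL6 sites with fasted PPARδ were at Hsd17b4, at 648 bp, and at Abcd3, at 804 bp downstream and 52170 bp upstream. Both Abcd3 sites had a BCL6 peak in fl/fl livers, and the Hsd17b4 site had none.

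PPARα calls reached the promoters of nearly all the genes. Within 1 kb of a curated TSS, 7 of the 8 genes had a PPARα site, compared with 25.3% of all genes, and the exception was Pex11a. BCL6 had a site in this range at Abcd2, Abcd3, Acaa1b, Ehhadh and Hsd17b4, compared with 4.38% of all genes. PPARδ had one at Abcd3, Acaa1a, Decr2 and Hsd17b4, compared with 3.15%. Counted by site, 10 of the 52 PPARα sites lay in this range, 19.2% (interval 10.8% to 31.9%) and close to the 16.5% of all PPARα sites. For BCL6 it was 5 of 34, 14.7% (interval 6.45% to 30.1%) against 5.36%. For PPARδ it was 4 of 19, 21.1% (interval 8.51% to 43.3%) against 7.96%. The range was chosen after the positions were seen, and no difference was tested. Of the 60 joint sites, 11 lay within 1 kb of the TSS. By location, 34 of the 60 were upstream, 20 in introns, 4 in exons and 2 downstream of the gene they were assigned to.

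DR1 matches were about as frequent at these sites as over all sites. At most 2 mismatches to AGGTCANAGGTCA on either strand were found in 10 of the 60 windows of 200 bp, 16.7% (interval 9.31% to 28%), and in 13.5% of all joint sites. They lay at 4 Abcd3 sites, 2 Ehhadh sites and 1 site each of Abcd2, Acaa1a, Acaa1b and Pex11a. Among sites of PPARα and PPARδ without BCL6 in C57BL/6 livers the count was 4 of 9, and 25.8% of all sites of that kind. The exact DR1 of Acaa1b was the only match at the 8 genes with fewer than 2 mismatches, whereas 3.16% of all joint sites had 1 or none. The BCL6 element with at most 1 mismatch was found in 3 of the 60 windows, 5% (interval 1.71% to 13.7%), and in 9.83% of all joint sites. The same element read backwards, as a control, was found in 3 of the 60 windows too, and in 4.07% of all joint sites. All 3 were sites of BCL6 alone, 2 at Ehhadh, 467 and 25514 bp upstream, and 1 at Abcd2, 13790 bp upstream. None of the 26 sites that BCL6 shared with PPARα held this element, which 10.1% of all sites of the 3 factors and 10.9% of those of BCL6 and PPARα held. In the RefSeq promoter sequences of GRCm38, which run over 300 bp and cover 6 of the 8 genes with 7 promoters, no DR1 within 2 mismatches was found, compared with 3.86% of all promoters. A BCL6 element within 1 mismatch was found in the Acaa1a promoter, compared with 8.63% of all promoters.

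BCL6 calls in fed fl/fl livers overlapped those in fed C57BL/6 livers at shares near those of the whole lists. Of 32 fed C57BL/6 peaks at the 8 genes, 23 had a fl/fl peak within 200 bp, 71.9% (interval 54.6% to 84.4%) against 69.4% of all. In the other direction 23 of 39 fl/fl peaks had a C57BL/6 peak, 59% against 62.2%. Among the 26 joint sites without BCL6 in either state in C57BL/6 livers, 11 had a fl/fl peak, 42.3% against 17.2% of all such sites. They included both Acaa1a sites, 3 sites of Abcd2 and 2 of Abcd3, so the absence of BCL6 from a site in the C57BL/6 lists did not carry over to the fl/fl list in these cases. Of the 15 sites called for BCL6 in fed C57BL/6 livers only, 8 had a fl/fl peak, 53.3% against 51% of all such sites, and of the 17 called in both states, 14 did, 82.4% against 88.5%.

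Other genes of peroxisomal oxidation had peaks of each factor at larger shares than all genes, which was not tested. Of 19 further peroxisomal oxidation genes, 15 had a BCL6 peak in fed livers and 14 in fasted livers, 17 had a PPARα peak in each state, and 13 and 9 had a PPARδ peak. The median number of joint sites was 5 per gene, compared with 4.5 for the 8 genes and 1 for all genes. Scp2, the sterol carrier and thiolase of branched chains, had the most with 17 sites, followed by Crot, which transfers medium chain products to carnitine, and Nudt7, a peroxisomal CoA diphosphatase, with 10 each, the latter count being shared by Slc27a2. The 15 other peroxins build the organelle and import its proteins. They had PPARα peaks nearly as often, at 12 genes in fed and 13 in fasted livers. Their BCL6 peaks were at 4 genes in each state, 26.7% against 29% of all genes in fed and 21.5% in fasted livers. PPARδ peaks were at 10 of the peroxins in fed livers, 66.7% against 19.3% of all genes. In fasted livers 3 peroxins had a PPARδ peak, 20% against 9.01%. Pex26, with 7 sites, and Pex14 and Pex5, with 6 each, had the most. At least 1 site of all 3 factors was present at 6 of the 8 genes, 11 of the 19 oxidation genes, 4 of the 15 peroxins and 13% of all genes.

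**Figure D5:**
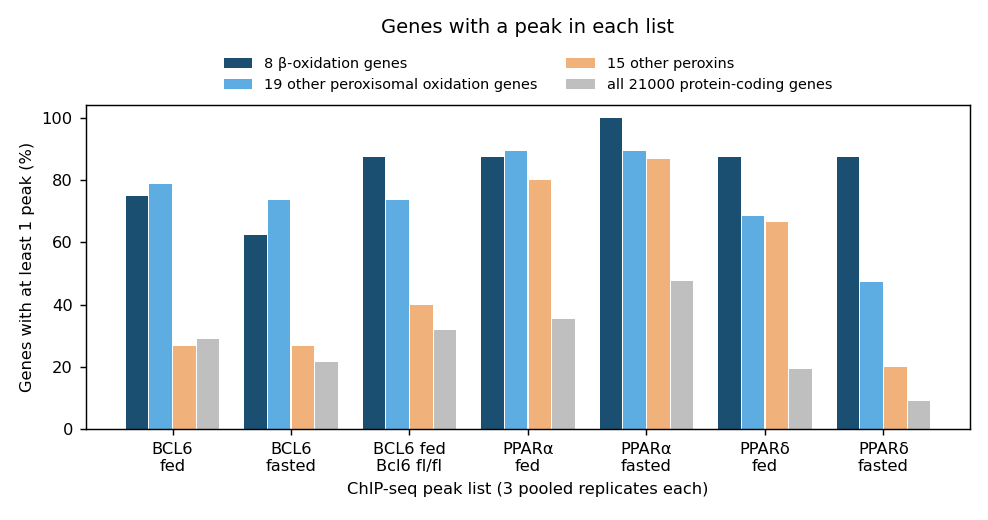
Share of genes with at least 1 assigned peak (vertical axis, %) in each of the 7 peak lists (horizontal axis), for the 8 peroxisomal β-oxidation genes, the 19 other peroxisomal oxidation genes, the 15 other peroxins and all 21000 protein-coding genes. The peroxins reach 80% and 86.7% in the PPARα lists and 26.7% in both C57BL/6 BCL6 lists, where the 8 genes reach 75% in fed and 62.5% in fasted livers.

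Genes with counts like those of Abcd2, the alphabetical choice among the 3 genes with 15 sites, were ranked by the sum of absolute differences over the 7 lists. Rgs8 was the closest with a sum of 5. Colec12 and Prr16 followed at 7, and Fam13a and Gramd3 at 8, where 3 genes were tied. The genes closest to the other two were Socs2, at a sum of 3 from Ehhadh, and Atp8b1, at a sum of 7 from Abcd3 and tied with Magi1.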

How the data were processed

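ChIP-seq of BCL6, PPARα and PPARδ from fed and fasted livers was read from 7 deposited peak lists, each of 3 pooled replicates. Bowtie was used by the authors for alignment to mm10, with uniquely placed reads kept, HOMER for calling peaks on pooled replicates, and DESeq2 for filtering them. The deposited columns hold positions in bp, with a constant width per list between 192 and 222 bp, and no count, score or p-value. Depth is therefore unknown.

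Peak centers within 200 bp were joined by single linkage. Genes and curated TSS came from RefSeq on GRCm38.p6, the assembly of mm10. Where a gene has several transcripts, distances refer to the start of the longest curated one. Consensus elements were scanned on both strands of 200 bp windows of the unmasked genome, and Acaa1a and Acaa1b were aligned with blastn at an E-value of at most 1e-10. Functions were tested on simulated data with planted peaks and elements.

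The genes and lists were chosen with earlier results of these data known. Named genes followed a rule: all 8 genes, the 3 genes with the most sites in each of the 2 pathway lists, those with none, which are not reported here, and the 5 genes most like the gene with the most sites. Windows that overlap an exon and those of Hsd17b4 are not printed. A planned comparison of the Acaa1a and Acaa1b proteins was replaced by the alignment of the genes. Alternatives covered the TSS reach and set, the gene body, the join distance, the BCL6 list, and the scan. Other samples were not used here. Software was BLAST 2.17.0, Matplotlib 3.10.9, NumPy 2.4.6, SciPy 1.17.1 and Python 3.11.15.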

Additional observations from a re-analysis of the deposited data

How the results depend on the processing

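Of 126 alternative values for 23 counts, 109 stayed within 1.5 times the reported count. With genes assigned by gene body only, peaks fell to 14, 5 and 16 for BCL6 in fed, fasted and fed fl/fl livers, 17 and 19 for PPARα in fed and fasted livers, and 11 for PPARδ in fed livers. With predicted transcripts as TSS, chosen after seeing the data, 14 of the 60 sites went to another gene and 46 sites were assigned, so that fasted BCL6 peaks came to 11, BCL6 sites called in both states to 9, and PPARα sites called in fed livers only to 3. With the fl/fl list as the fed BCL6 list, 24 BCL6 sites were fed-only and 4 fasted-only. DR1 matches came to 5 in a 50 bp window, 1 with at most 1 mismatch, 32 with at most 3 mismatches (53.3% against 41% of all joint sites), and 3 with the element read backwards. BCL6 elements came to 0 in a 50 bp window, 1 without a mismatch, and 3 with the element read backwards, as many as in its own direction (9.83% and 4.07% of all joint sites, forwards and backwards). A TSS reach of 50 kb or 1 Mb and other join distances moved no count beyond 1.5 times. The farthest site lay 91081 bp from a TSS, and none lay beyond 100 kb. No paired analysis was possible because each list pools its replicates, and for the same reason no replicate could be left out. Calls near the threshold of the peak caller cannot be recognized without scores.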
